A study of Rattus norvegicus with 21 samples.

Results

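Small leucine-rich proteoglycans are matrix proteins that fibroblasts secrete in quantity, and 8 of their genes (Lum, Dcn, Ogn, Bgn, Fmod, Omd, Prelp and Aspn) were followed here through preparations of rat forebrain astrocytes. The genes were chosen by name. Each was read through every probe set on the array whose only gene symbol was that name, which gave 12 probe sets of 31042 in all, 4 of them for Ogn and 2 for Aspn. One lead probe set stood for each gene, the one with the highest mean over all 21 arrays, so 8 of 14217 genes are described. In the plots and values below, a level is the log2 of the deposited intensity of a lead probe set.

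The study compared astrocytes taken straight from the brain with astrocytes kept in several kinds of culture, in 7 groups of 3 biological replicates from rats, Sprague Dawley for the panned cells. Immunopanning, the capture of living cells on a dish coated with an antibody, here against the integrin ITGB5, gave cells of postnatal day 1 or 7 that were lysed without culture (fresh P1 cells and fresh P7 cells). Panned cells of both ages were also kept for 7 days in medium with the growth factor HBEGF at 5 ng/ml (HBEGF P1 cultures and HBEGF P7 cultures). Panned P7 cells were plated for 7 days in medium with 10% foetal calf serum (serum P7 cultures), and further serum-grown cultures were then rinsed and given HBEGF medium in place of serum for another 7 days (withdrawn P7 cultures). MD cultures came from P1 forebrain by the method of McCarthy and de Vellis, in 10% foetal calf serum for 7 days. The characteristics field of the HBEGF P7 cultures names p1 where title and source name give P7, and the title was followed. Panning on a single surface protein selects cells, and the cells that a culture holds at harvest can differ from those plated.

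These proteoglycans share a core protein of leucine-rich repeats, bent like a horseshoe, that lies along collagen fibrils and helps set their width and spacing. Decorin (Dcn), biglycan (Bgn) and asporin (Aspn) form one branch of the family, of which decorin and biglycan carry chondroitin or dermatan sulphate chains while asporin has a stretch of aspartate residues in their place. Lumican (Lum), fibromodulin (Fmod), osteomodulin (Omd) and prolargin (Prelp) form another, in which lumican, fibromodulin and osteomodulin can carry keratan sulphate. Osteoglycin (Ogn), also called mimecan, belongs to neither of these branches. In brain the family is known mainly from the meninges and from fibroblasts around blood vessels, and decorin is also known as a binder of TGF-beta.

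The labelled cell type was checked against 7 astrocyte markers. The lowest level of Slc1a3, the glutamate transporter GLAST, on any array was 13.12 and that of Gja1, the astrocyte connexin, was 13.72 in the MD cultures, against array medians between 7.00 and 7.19. Gfap, the glial filament protein, lay between 12.03 and 14.76. Aldh1l1, an enzyme of folate metabolism used as an astrocyte marker, was at 8.43 to 8.84 in MD cultures and at 12.32 to 12.65 in fresh P1 cells. Slc1a2, the glutamate transporter GLT-1, was at 10.12 to 10.51 in fresh P7 cells but below the array medians in MD cultures (6.58 to 6.90), HBEGF P1 cultures (6.73 to 6.94) and withdrawn P7 cultures (6.03 to 6.23). Fibroblast and meningeal markers other than these proteoglycans were read as a list of 24 genes, whose mean level per array ran from 7.14 to 7.33 in MD cultures, 7.31 to 8.21 in fresh P1 cells, 7.68 to 8.43 in fresh P7 cells, 8.15 to 8.55 in HBEGF P1 cultures, 7.94 to 9.96 in HBEGF P7 cultures, 9.15 to 11.24 in serum P7 cultures and 10.80 to 11.34 in withdrawn P7 cultures. Microglial markers (8 genes) ran from 6.97 to 8.07 in withdrawn P7 cultures and from 6.67 to 7.38 in fresh P7 cells, were at 7.32 on 1 HBEGF P7 array, and lay between 5.58 and 6.28 on all arrays of the other groups.

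**Figure D1:**
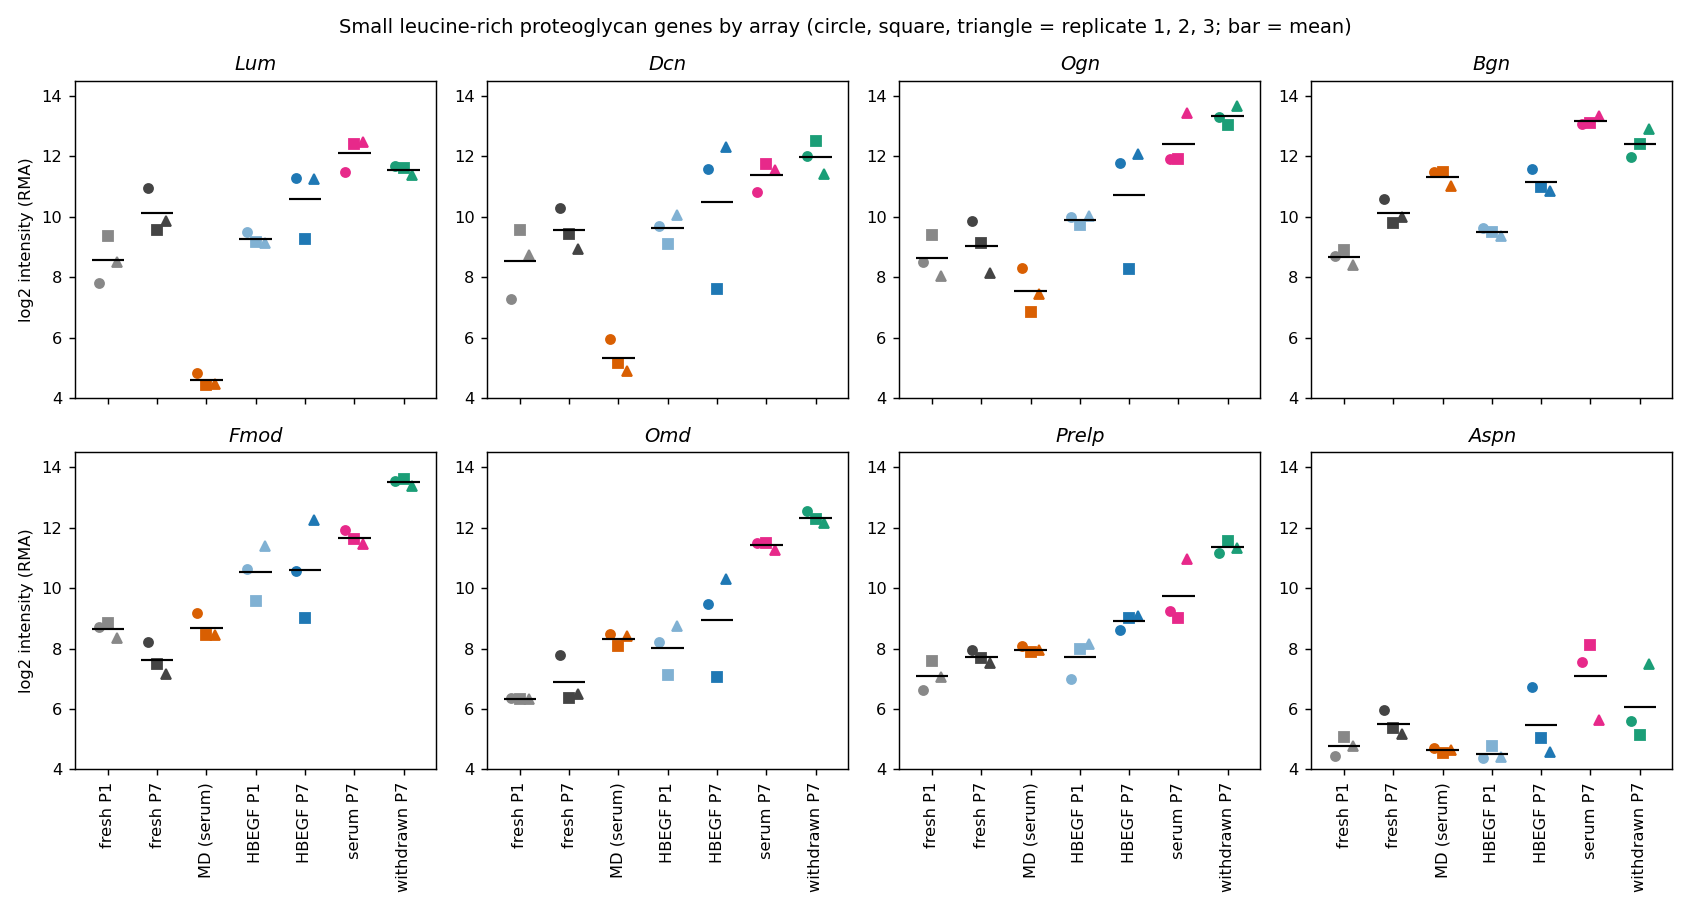
The log2 intensity of the lead probe set of each gene is plotted for the 3 arrays of each of the 7 groups, with replicates 1, 2 and 3 as circle, square and triangle and the group mean as a bar. Lum and Dcn are lowest in MD cultures (means 4.58 and 5.34), all genes except Lum, Bgn and Aspn have their highest mean in withdrawn P7 cultures, and replicate 2 of the HBEGF P7 cultures lies far below its partners for Lum, Dcn, Ogn, Fmod and Omd.

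The panned P7 cells in serum or after serum had the highest means for every member: Lum, Bgn and Aspn in serum P7 cultures, the other 5 in withdrawn P7 cultures. The low end differed between members. MD cultures had the lowest mean for Lum, Dcn and Ogn, fresh P1 cells for Bgn, Omd and Prelp, fresh P7 cells for Fmod and HBEGF P1 cultures for Aspn. In RNA of whole cultures, more cells of a type and more RNA per cell cannot be told apart.

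Lumican, a regulator of collagen fibril growth known from the cornea, gave 4.84, 4.44 and 4.47 in the 3 MD cultures and 11.47, 12.40 and 12.49 in the 3 serum P7 cultures. It gave 7.81, 9.37 and 8.49 in fresh P1 cells and 10.96, 9.57 and 9.86 in fresh P7 cells. In the HBEGF P1 cultures its levels were 9.51, 9.18 and 9.14. The MD arrays were below every other array of the series, and the fresh P7 arrays lay above the fresh P1 arrays without overlap. Among the P7 cultures Lum was at 11.28, 9.26 and 11.26 with HBEGF and at 11.68, 11.63 and 11.39 after withdrawal. Replicate 2 of the HBEGF P7 cultures was thus at the level of the HBEGF P1 cultures, while the withdrawn arrays lay within a narrow range. In the order of group means, overlapping neighbours were fresh P1 cells with HBEGF P1 cultures, fresh P7 cells with HBEGF P7 cultures, and withdrawn with serum P7 cultures.

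Decorin, the member best known for binding TGF-beta and collagen, followed the same outline with more spread. Its levels were 5.95, 5.16 and 4.91 in MD cultures, 7.27, 9.57 and 8.75 in fresh P1 cells and 9.70, 9.11 and 10.07 in HBEGF P1 cultures. Again the MD arrays lay below all others. Fresh P7 cells gave 10.29, 9.44 and 8.92, serum P7 cultures 10.84, 11.76 and 11.56, and withdrawn P7 cultures 12, 12.50 and 11.43. HBEGF P7 cultures held both one of the highest and one of the lowest values of the P7 arrays, at 11.58, 7.60 and 12.31. Above MD cultures, each group's arrays overlapped those of the next group in the order of means.

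Osteoglycin, found in bone, cornea and meninges, was at 8.31, 6.84 and 7.45 in MD cultures, 8.50, 9.39 and 8.05 in fresh P1 cells and 9.86, 9.13 and 8.14 in fresh P7 cells. The MD and fresh P1 arrays overlapped, unlike those of Lum and Dcn. With HBEGF, Ogn reached 9.98, 9.72 and 10.03 in P1 cultures and 11.78, 8.28 and 12.09 in P7 cultures, where replicate 2 was lower than every HBEGF P1 array. Serum P7 cultures gave 11.91, 11.92 and 13.44 and withdrawn P7 cultures 13.31, 13.03 and 13.68, so the third serum culture lay among the withdrawn ones. The 4 probe sets of Ogn moved alike, with pairwise r of 0.950 to 0.986 over the 21 arrays.

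Biglycan, a proteoglycan of bone and soft connective tissue also known as a ligand of Toll-like receptors, ran an order of its own. MD cultures, lowest for Lum, Dcn and Ogn, gave 11.50, 11.47 and 11.02 for Bgn, above all fresh arrays. Fresh P1 cells were at 8.72, 8.89 and 8.41 and fresh P7 cells at 10.58, 9.79 and 9.98. HBEGF P1 cultures gave 9.63, 9.51 and 9.36, between the ranges of the fresh groups. Among the P7 cultures the levels were 11.60, 11.00 and 10.86 with HBEGF, 13.08, 13.10 and 13.34 with serum and 11.98, 12.40 and 12.90 after withdrawal. These 3 groups did not overlap, and replicate 2 of the HBEGF P7 cultures lay between the other two. Only HBEGF P7 and MD cultures overlapped as neighbours in the order of Bgn means.

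Fibromodulin, which binds collagen and recruits lysyl oxidase to it, was low in fresh cells and in MD cultures. Fresh P1 cells gave 8.72, 8.84 and 8.35, fresh P7 cells 8.23, 7.50 and 7.17, and MD cultures 9.18, 8.46 and 8.45. HBEGF cultures were above all of these at P1, with 10.62, 9.56 and 11.41, while the P7 cultures spread over 10.58, 9.0 and 12.26. Replicate 2 was the low array in both HBEGF groups. Serum P7 cultures were close together at 11.92, 11.64 and 11.46, and withdrawn P7 cultures at 13.56, 13.61 and 13.38, above every other array.

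Osteomodulin, an acidic member known from mineralised matrix, showed the closest replicates of the set in fresh P1 cells, at 6.36, 6.34 and 6.33. These levels were below the array medians. Fresh P7 cells gave 7.79, 6.35 and 6.50, HBEGF P1 cultures 8.23, 7.12 and 8.74 and MD cultures 8.48, 8.07 and 8.41. These ranges ran into one another. In the P7 cultures Omd was at 9.47, 7.07 and 10.29 with HBEGF, 11.49, 11.51 and 11.25 with serum and 12.56, 12.28 and 12.15 after withdrawal, 3 ranges without overlap.

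Prolargin, which ties basement membranes to the connective tissue beneath them, lay close together in the fresh groups and the P1 cultures. Its arrays lay at 6.62, 7.59 and 7.05 in fresh P1 cells, 7.94, 7.68 and 7.53 in fresh P7 cells, 8.07, 7.89 and 7.94 in MD cultures and 7.0, 8.0 and 8.14 in HBEGF P1 cultures. HBEGF P7 cultures gave 8.62, 9.02 and 9.07, with replicate 2 beside replicate 3. Serum P7 cultures gave 9.23, 9.02 and 10.96 and withdrawn P7 cultures 11.18, 11.55 and 11.34, so the third serum culture stood high for Prelp as it did for Ogn.

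Asporin, which binds collagen and TGF-beta and is known from cartilage, gave low levels in most groups. No group mean exceeded 7.10 on its lead probe set, and P1 and MD arrays lay between 4.36 and 5.07. Fresh P7 cells gave 5.96, 5.38 and 5.18. P7 cultures spread widely, at 6.73, 5.04 and 4.59 with HBEGF, 7.54, 8.11 and 5.64 with serum and 5.59, 5.13 and 7.49 after withdrawal. The third serum culture was the lowest of its group for Aspn, as for Fmod and Omd, and the highest for Ogn, Bgn, Lum and Prelp. In the withdrawn group replicate 3 was the highest for Aspn, Ogn and Bgn. Both of its probe sets moved alike (r = 0.966 over 21 arrays).

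Changes between groups were tested with limma over all probe sets, and a gene was called at a Benjamini-Hochberg adjusted p under 0.05 and a log2 change of at least 1. SE is the moderated standard error, and all adjusted p values below are from that fit. Several comparisons share arrays (fresh P7 cells and HBEGF P7 cultures each enter several), so counts from different comparisons are given side by side only. An exact permutation test of 3 against 3 arrays cannot give a p below 0.1.

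**Figure D2:**
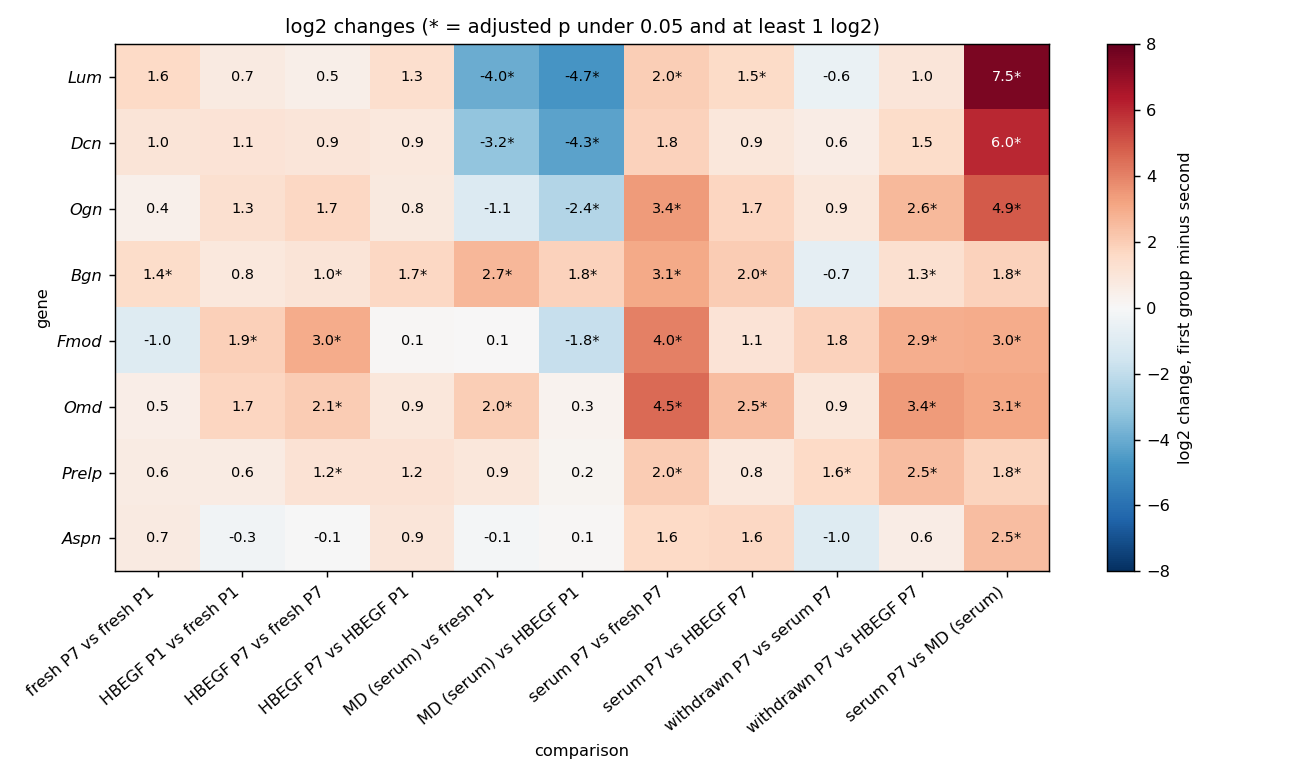
Each cell gives the log2 change of a gene (rows) in a comparison (columns), first group minus second, with colour from blue (lower) to red (higher) and an asterisk where the change was called. All 8 genes carry an asterisk for serum P7 against MD cultures, and MD cultures against fresh P1 cells holds both directions, with Lum at -3.97 and Bgn at 2.65.

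Between fresh P7 and fresh P1 cells, Bgn was the 1 member of 8 that rose, where 1.37% of all genes were called higher and 0.183% lower. It rose by 1.44 on the log2 scale (SE 0.25, 2.72-fold, adjusted p = 0.00372) without overlap of the arrays. Lum had a larger difference of 1.58 that did not pass (adjusted p = 0.0906), and Fmod differed by -1.0 (adjusted p = 0.392). The median change of the members was 0.69, against -0.02 over all genes. None of the 24 fibroblast and meningeal markers was called by limma, with 4 higher and 1 lower at an unadjusted p under 0.05.

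After 7 days of culture in HBEGF medium, fibromodulin was the member that moved at P1. HBEGF and culture itself cannot be told apart in comparisons with fresh cells. In HBEGF P1 cultures against fresh P1 cells 1 of 8 members was called higher, Fmod, which rose by 1.89 (SE 0.57, 3.71-fold, adjusted p = 0.0263), and 4.38% of all genes were called higher and 4.49% lower. This call was lost in 5 of the 6 fits that left out 1 of these arrays: without fresh P1 replicate 1 (1.94), 2 (2.00) or 3 (1.75), or without HBEGF P1 replicate 1 (1.85) or 3 (1.45). Omd differed by 1.69 with an adjusted p of 0.0501, and with the replicate number as a block it was called (adjusted p = 0.0254), which made 2 members. Bgn differed by 0.82 (adjusted p = 0.0244), under the fold limit, and its arrays did not overlap. Across the members the median change was 0.96, against 0.03 over all genes. Mgp and Pdgfra were the 2 fibroblast and meningeal markers of 24 that rose, by 4.0 and 3.68. Pdgfra is also known from oligodendrocyte progenitors.

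At P7 the same comparison of HBEGF cultures with fresh cells called 4 of 8 members higher: Fmod, Omd, Prelp and Bgn, where 4.78% of all genes were called higher and 5.51% lower. Fmod rose by 2.98 (SE 0.57, 7.89-fold, adjusted p = 0.00105) and stayed called with any 1 array left out, but not with only these 2 groups in the fit (adjusted p = 0.0514), where Omd (adjusted p = 0.167) and Bgn (adjusted p = 0.0577) were lost too. Omd rose by 2.06 (adjusted p = 0.0158), Prelp by 1.19 (adjusted p = 0.0374) and Bgn by 1.04 (adjusted p = 0.00516). Each of these 3 calls was lost in several of the 6 fits that left out 1 array: Omd in 4, Prelp in 5 and Bgn in 3. The changes stayed positive in all of these fits. That of Omd was lost without fresh P7 replicate 2 (1.80) or 3 (1.87) or HBEGF P7 replicate 1 (1.80) or 3 (1.39). The Prelp call ended with array weights (adjusted p = 0.0683), without any fresh P7 array (1.30, 1.17 and 1.09 for replicates 1 to 3) and without HBEGF P7 replicate 2 (1.13) or 3 (1.10), and Bgn went under the fold limit without fresh P7 replicate 2 (0.87) or 3 (0.97) or HBEGF P7 replicate 1 (0.82). Leaving out HBEGF P7 replicate 2 had the opposite effect on others: Dcn then differed by 2.39 (adjusted p = 0.00541) and Ogn by 2.89 (adjusted p = 0.000852), against 0.94 and 1.68 with it. Over the 8 members the median was 1.11, and over all genes 0.07. Among the fibroblast and meningeal markers 6 of 24 rose, led by Cemip (3.47), Mgp (3.17), Crabp2 (2.59) and Tbx18 (2.21), and their part in these results was not tested. Here too HBEGF and culture itself cannot be told apart.

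Whether the culture change differed between the ages was tested directly, as the P7 change minus the P1 change. No member was called (0 of 8, 0 at an unadjusted p under 0.05, by limma), where 0.162% of all genes were called higher and 0.654% lower. For Fmod the difference of changes was 1.09 with a 95% interval from -0.62 to 2.80, and for Bgn 0.21 with an interval from -0.52 to 0.95. For Dcn the interval ran from -2.72 to 2.41, wide enough to hold large differences either way.

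HBEGF cultures of the 2 ages differed in biglycan. Bgn was the 1 member of 8 called higher in P7 than in P1 cultures, by 1.66 (SE 0.25, 3.15-fold, adjusted p = 0.0028), where 0.753% of all genes were called higher and 0.359% lower. With only these 2 groups in the fit the call was lost (adjusted p = 0.16). Fmod, at 0.08, had a 95% interval from -1.12 to 1.29. Without HBEGF P7 replicate 2, Lum (1.99, adjusted p = 0.0184), Dcn (2.31, adjusted p = 0.0444) and Omd (1.85, adjusted p = 0.0278) were called as well, which made 4 members. With it, their differences were 1.32, 0.87 and 0.91. A median of 0.93 over the members stood beside 0 over all genes. Of the collagen list, described below, 6 of 21 genes rose here, among them Col1a2 (1.71) and Fbn2 (1.70).

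MD cultures split the family. Against fresh P1 cells, Lum fell by 3.97 on the log2 scale (SE 0.48, adjusted p = 5.63e-06) and Dcn fell by 3.19 (SE 0.86, adjusted p = 0.0073), while Bgn rose by 2.65 (SE 0.25, 6.3-fold, adjusted p = 2.72e-07) and Omd by 1.98 (SE 0.58, 3.94-fold, adjusted p = 0.0125). That made 2 of 8 members higher and 2 lower, where 10.1% of all genes were called higher and 9.43% lower. All 4 calls held with any 1 array left out. The arrays of each did not overlap, and the share of all genes without overlap was not counted. In the MD cultures Lum lay at percentiles 7.54 to 14.4 of all probe sets on its array and Dcn at 16.9 to 35.4. Levels that low can lie at the floor of the array, and detection calls were not used here, so no fold is given against the MD levels of Lum, Dcn or Aspn and the log2 differences are those of the values as deposited. Omd lay at percentiles 40.5 to 41.2 of the fresh P1 arrays, so its fold also rests on a low level. Fmod differed by 0.06, with a 95% interval from -1.15 to 1.27. The members' median was -0.04, against 0.11 over all genes.

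The collagen list was split in the same comparison. Of 21 genes of fibrillar collagens, collagen VI and elastic fibre partners, 8 rose and 5 fell, with Col6a2 at 3.71 and Col6a1 at 3.15 on one side and Col3a1 at -3.18 and the microfibril gene Mfap2 at -3.05 on the other. Of the fibroblast and meningeal markers 3 of 24 were higher, among them Twist1 (2.32) and Col1a2 (1.96), 4 were lower, among them Igf2 (-3.58), and 17 were not called. These counts are not far from the shares over all genes (10.1% higher and 9.43% lower). Of the mural markers 3 of 11 rose, the contractile genes Cnn1 (5.51), Tagln (4.70) and Acta2 (2.27), and 2 fell, among them the pericyte gene Rgs5 (-3.03). The part of these cells in the result was not tested. Preparation, selection, medium and 7 days of culture all differ between these groups and cannot be told apart.

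Compared with HBEGF P1 cultures, 1 of 8 members was higher in MD cultures and 4 were lower, where 8.81% of all genes were called higher and 9.57% lower. Lum fell by 4.70 (adjusted p = 1.18e-06), Dcn fell by 4.28 (adjusted p = 0.000808), Ogn fell by 2.37 (adjusted p = 0.0204) and Fmod fell by 1.83 (adjusted p = 0.0187). Bgn rose by 1.83 (3.56-fold, adjusted p = 1.88e-05). The Lum, Dcn and Bgn calls held with any 1 array left out. Those of Ogn and Fmod did not: without MD replicate 2 they were -2.03 and -1.71, without MD replicate 3 -2.33 and -1.71, without HBEGF P1 replicate 1 -2.34 and -1.79, and without HBEGF P1 replicate 3 -2.31 and -1.39. Of the 4 Ogn probe sets, 3 were called lower and the fourth was not, with changes from -2.37 to -1.89. The 2 Aspn probe sets disagreed in sign, at 0.12 and -0.33, and neither was called. The members' median was -0.86, against 0.09 over all genes, and 7 of the 24 fibroblast and meningeal markers fell while 2 rose, with Pdgfra at -5.49 and Ptgds at -5.27. Preparation, panning and medium differ between these cultures and cannot be told apart.

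In serum P7 cultures 6 of 8 members rose against fresh P7 cells and none fell, where 9.12% of all genes were called higher and 9.04% lower. Omd rose by 4.53 (SE 0.58, 23.2-fold, adjusted p = 1.09e-05), Fmod by 4.04 (16.5-fold, adjusted p = 3.1e-05), Ogn by 3.38 (10.4-fold, adjusted p = 0.00192) and Bgn by 3.06 (SE 0.25, 8.33-fold, adjusted p = 6.19e-08). Omd lay at percentiles 56.5, 40.8 and 43.4 of the fresh P7 arrays, so its fold rests on a low level. Prelp (2.02, adjusted p = 0.000638) and Lum (1.99, adjusted p = 0.00383) complete the 6, none of which was lost with any 1 array left out. Dcn differed by 1.84 without overlap of its arrays and was not called (adjusted p = 0.106). Aspn, at 1.59 (adjusted p = 0.0551), was called without serum P7 replicate 3 (2.32, adjusted p = 0.00618). The median change was 2.54 for the members and 0.07 for all genes, and the fibroblast and meningeal markers moved with them, 14 of 24 higher and none lower, with Crabp2 at 4.51, Cemip at 3.99, Mgp at 3.96 and Tbx18 at 3.52. Their part in the result was not tested. Serum and culture itself cannot be told apart in this comparison.

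All 8 members were higher in serum P7 cultures than in MD cultures, both grown for 7 days in 10% serum, where 7.58% of all genes were called higher and 6.37% lower. Lum differed by 7.54 on the log2 scale (SE 0.48, adjusted p = 3.19e-08) and Dcn by 6.04 (adjusted p = 6.58e-05), both against low MD levels as above, and Ogn by 4.89 (29.6-fold, adjusted p = 0.000138). For Omd (3.09), Fmod (2.98), Aspn (2.47) and Bgn (1.85) the adjusted p values were 0.000754, 0.000912, 0.00679 and 3.5e-05, and Aspn lay at percentiles 9.44 to 11.6 in the MD cultures. Prelp differed by 1.77 (adjusted p = 0.00282), and by 1.16 without serum P7 replicate 3, still called. All 8 calls held with any 1 array left out. The arrays of one group did not overlap those of the other for any member, and the share of all genes without overlap was not counted. Taken over the 8 members the median difference was 3.04, and over all genes -0.07. Age at isolation and panning differ between these groups and cannot be told apart.

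In the same comparison 16 of 24 fibroblast and meningeal markers were higher and none lower, with Col3a1 at 7.33, Col1a1 at 5.35, Tbx18 at 4.61 and Pdgfra at 4.40. Mean levels of the whole list were 7.14 to 7.33 in MD cultures and 9.15 to 11.24 in serum P7 cultures, and its part in the result was not tested. The astrocyte genes Aldh1l1 (2.79), Aqp4 (1.45) and Gfap (1.26) were also higher in the serum P7 cultures, 3 of 7 markers with none lower.

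With serum in place of HBEGF, 3 of 8 members were higher in P7 cultures, where 4.83% of all genes were called higher and 4.47% lower. Omd rose by 2.47 (SE 0.58, 5.56-fold, adjusted p = 0.00592; 1.54 without HBEGF P7 replicate 2, still called), Bgn by 2.02 (SE 0.25, 4.06-fold, adjusted p = 3.21e-05) and Lum by 1.52 (SE 0.48, 2.87-fold, adjusted p = 0.0341). The Lum call was lost without HBEGF P7 replicate 2 (0.85, adjusted p = 0.176), serum P7 replicate 2 (1.38) or serum P7 replicate 3 (1.33). Without HBEGF P7 replicate 3, Fmod (1.88, adjusted p = 0.00904) and Ogn (2.39, adjusted p = 0.0372) were called too, which made 5 members, against 1.06 and 1.71 with it. Aspn, at 1.64, was called without HBEGF P7 replicate 1 (2.28) or serum P7 replicate 3 (2.37). Dcn was at 0.89 with a 95% interval from -0.92 to 2.70, and its difference was -0.56 without HBEGF P7 replicate 2. With only these 2 groups in the fit the calls of Omd (adjusted p = 0.103) and Lum (adjusted p = 0.167) were lost. Members had a median difference of 1.58 and all genes one of 0. Of the fibroblast and meningeal markers 8 of 24 were higher and none lower, led by Col1a1 (2.47), and of the mural markers 4 of 11, led by Cnn1 (3.64), and the part of either list was not tested.

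Moving serum-grown cells to HBEGF medium left most members high. Against serum P7 cultures, Prelp was the 1 member of 8 that rose in withdrawn P7 cultures, by 1.62 (SE 0.39, 3.08-fold, adjusted p = 0.0187), where 2.24% of all genes were called higher and 2.26% lower. Its call was lost without serum P7 replicate 1 (1.37), serum P7 replicate 2 (1.26) or withdrawn P7 replicate 2 (1.52), and with only these 2 groups in the fit (adjusted p = 0.118). Fmod differed by 1.84 (adjusted p = 0.0617) with no overlap of its arrays, and with the replicate number as a block it was called (adjusted p = 0.0477), which made 2 members. Bgn differed by -0.75 (adjusted p = 0.0768) and Lum by -0.55, with a 95% interval from -1.58 to 0.47. The members' median was 0.75, against 0.02 over all genes. Microglial markers moved in the same comparison, with 4 of 8 higher and none lower, led by C1qb (4.18) and C1qa (4.15), while P2ry12, Aif1 and Cx3cr1 were not called. Of the fibroblast and meningeal markers 1 of 24 was higher, Slc13a4 (3.85), and none lower. The part of these lists in the Prelp result was not tested. Removal of serum, addition of HBEGF and 7 more days in culture cannot be told apart in this comparison.

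Cells with a serum history also differed from cells that had never met serum, both ending in HBEGF medium. In withdrawn against HBEGF P7 cultures 5 of 8 members were higher and none lower, where 6.29% of all genes were called higher and 5.42% lower. Omd was higher by 3.39 (10.5-fold, adjusted p = 0.000618), Fmod by 2.90 (7.47-fold, adjusted p = 0.00174), Ogn by 2.62 (6.16-fold, adjusted p = 0.018), Prelp by 2.45 (5.47-fold, adjusted p = 0.000377) and Bgn by 1.27 (2.42-fold, adjusted p = 0.00149). Only the Ogn call was lost with single arrays, without HBEGF P7 replicate 2 (1.41) or withdrawn P7 replicate 3 (2.45). With only these 2 groups in the fit, Ogn (adjusted p = 0.132) and Fmod (adjusted p = 0.0616) were not called. Dcn, at 1.48, was called without HBEGF P7 replicate 3 (2.39, adjusted p = 0.0486) and was at 0.04 without HBEGF P7 replicate 2. The members' median was 1.97, against 0.01 over all genes. Of the fibroblast and meningeal markers 15 of 24 were higher, led by Slc13a4 (5.14), Aldh1a2 (3.51), Igf2 (3.36) and Crabp2 (3.11), and of the microglial markers 3 of 8, and the part of either list was not tested. Withdrawn cultures were also kept longer, and serum history and time in culture cannot be told apart.

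Array by array, the P7 cultures differed most within the HBEGF group. Of the 8 members 6 spanned at least 2 log2 units among the 3 HBEGF P7 arrays, as did 3.89% of all genes, while at most 1 member did in each other group. Replicate 2 lay below the mean of replicates 1 and 3 by 4.34 for Dcn, 3.65 for Ogn, 2.81 for Omd, 2.41 for Fmod and 2.01 for Lum, and by 0.62 for Aspn and 0.23 for Bgn. Prelp lay 0.18 above. Over all genes the median of that difference was 0.01, and 7037 of 14217 genes were below.

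The fibroblast and meningeal markers were low on the same array. There 21 of 24 lay below the mean of the other two, with a median of -1.41, and the list means were 9.43, 7.94 and 9.96 for replicates 1 to 3. Ptgds, the prostaglandin D synthase of the leptomeninges, was at 11.53, 6.83 and 13.90, Igf2 at 11.17, 7.88 and 12.89, and the receptor gene Pdgfra at 12.37, 9.46 and 12.80. These 3 genes lay furthest below on replicate 2 of the 24 markers, so they do not stand for the list. Mgp (0.89), Pi16 (0.22) and Foxc2 (0.22) lay above the mean of replicates 1 and 3. Of the collagen list 17 of 21 were below (median -0.85), of the astrocyte list 5 of 7 (median -0.15), of the neuronal list 5 of 7 (median -0.99) and of the microglial list 6 of 8 (median -0.68). The microglial list means were 5.75, 5.62 and 7.32 for replicates 1 to 3, so there replicate 3 stood apart by being high. Those of the neuronal list were 7.79, 7.05 and 9.33, with replicate 3 the furthest from the others. The part of these lists in the spread of the members was not tested.

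Serum P7 cultures gave another picture. There the marker list ran from 9.15 and 9.66 to 11.24 in replicate 3, and Ptgds from 6.26 and 8.96 to 14.25. Slc6a13, a GABA and taurine transporter of the leptomeninges, went from 5.61 and 5.75 to 10.64. Fmod and Omd were lowest in replicate 3, at 11.46 and 11.25, Dcn lay between its partners at 11.56, and Bgn gave 13.34 there against 13.08 and 13.10. Ogn and Prelp were the members that stood higher in replicate 3. Other genes of the marker list were high on all 3 serum arrays, with Col3a1 at 14.01, 14.37 and 14.69 and Crabp2 at 11.16, 11.95 and 13.33. The list mean was above that of every fresh P7 array (7.68 to 8.43) on all 3, and its part in the members' levels was not tested. Slc6a13, Col3a1 and Crabp2 were singled out here after their values were seen.

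**Figure D3:**
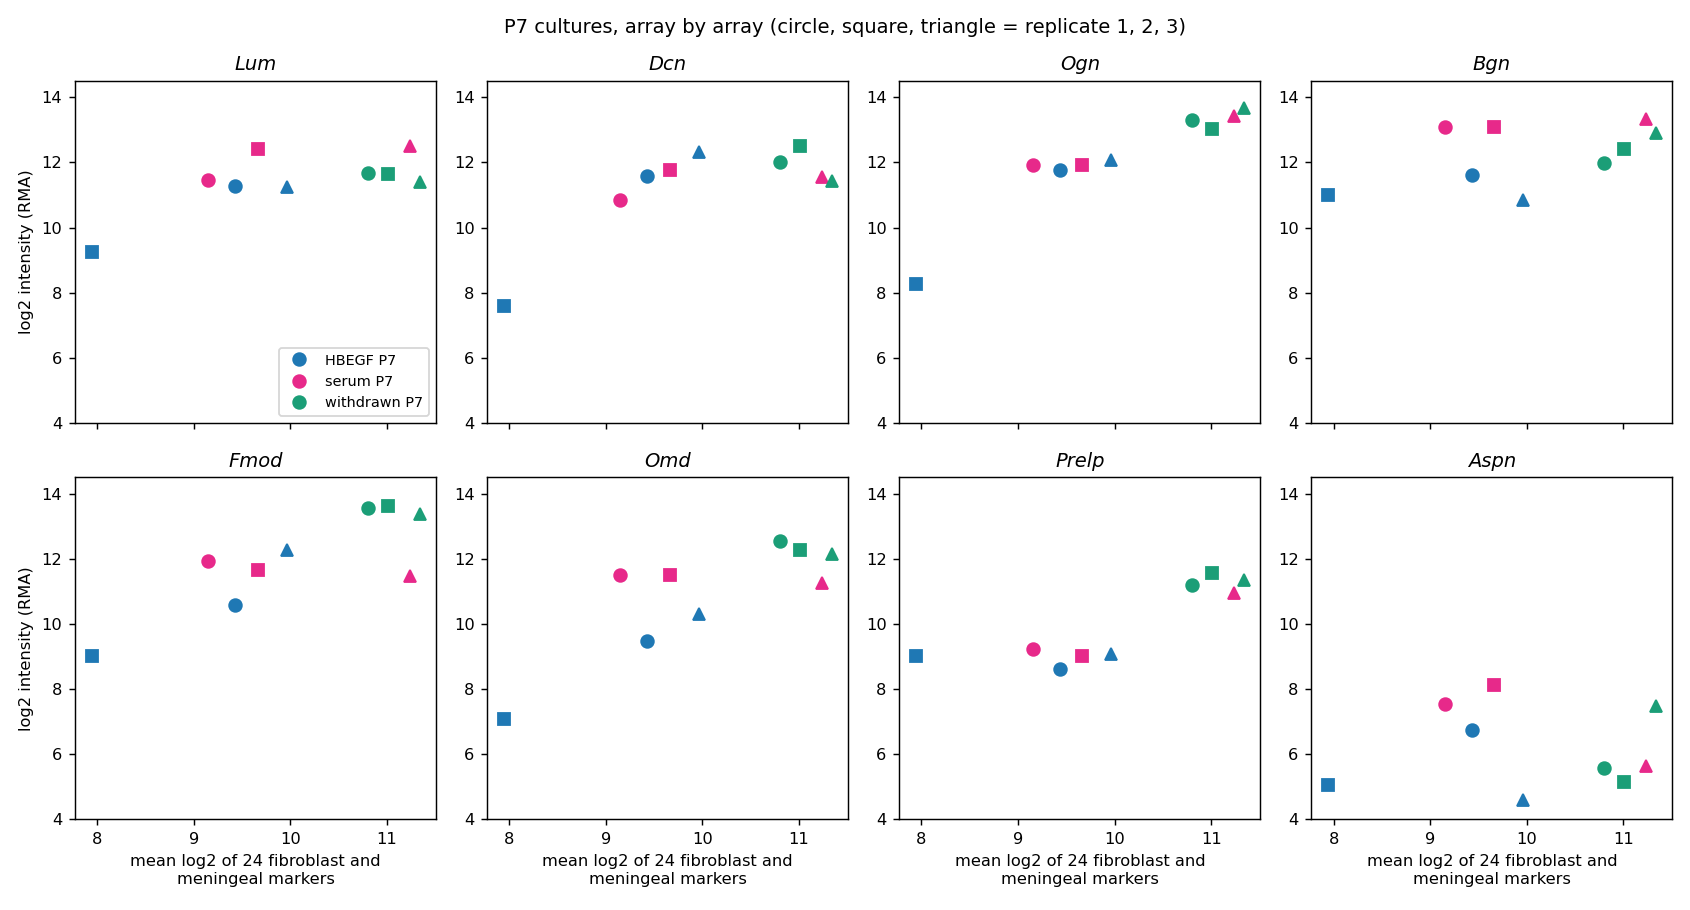
For each of the 9 arrays of the HBEGF (blue), serum (pink) and withdrawn (green) P7 cultures, the log2 intensity of a member is plotted against the mean log2 intensity of 24 fibroblast and meningeal markers on the same array. Replicate 2 of the HBEGF group (blue square, marker mean 7.94) is lowest for Lum, Dcn, Ogn, Fmod and Omd, while the serum arrays spread from 9.15 to 11.24 in marker mean with Fmod between 11.46 and 11.92 and Omd between 11.25 and 11.51.

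Relatives of the 8 genes were read as a list of 10, of which 7 had a probe set: Chad, Podn, Podnl1, Ecm2, Optc, Tsku and Chadl. They did not move as one. Ecm2 was at 5.71, 5.84 and 7.94 in serum P7 cultures and at 7.68, 8.34 and 10.02 after withdrawal, a rise of 2.18 (adjusted p = 0.0291) although the arrays overlapped, and it was 2.54 higher than in HBEGF P7 cultures (adjusted p = 0.00458). Podn was higher by 1.13 in the latter comparison. Chadl went against the members in serum P7 cultures against fresh P7 cells, with a change of -1.75 (adjusted p = 0.000714). After withdrawal Chadl was higher by 1.17 (adjusted p = 0.0498), in the direction of the members' median there (0.75). Tsku, a secreted modulator of TGF-beta and Wnt signals, was highest in MD cultures, where its mean was 10.44 ± 0.08 (SD, n = 3) against 8.88 ± 0.27 in serum P7 cultures, a difference of -1.57 for serum against MD (adjusted p = 3.56e-05). Optc, Chad and Podnl1 were called in none of the 11 comparisons. Optc came nearest, at 0.96 in serum P7 cultures against fresh P7 cells (adjusted p = 0.00337), under the fold limit.

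Most genes of the collagen list, which also holds Fn1, Thbs2 and elastic fibre genes, rose in the serum comparisons as well. The list shares Col1a1, Col1a2 and Col3a1 with the fibroblast markers. Of the 21 genes of the collagen list, 14 were higher in serum P7 cultures than in fresh P7 cells and none lower, led by Thbs2 (4.0), Col6a1 (3.33), Col3a1 (3.27) and Fn1 (3.07). Of all genes, 9.12% were called higher there and 9.04% lower. Against HBEGF P7 cultures 13 were higher, with Col1a1 at 2.47 and Fbn1 at 2.24, where 4.83% of all genes were called higher. Col1a1 gave 12.64, 13.15 and 12.98 in the 3 serum P7 cultures and 10.52, 10.04 and 9.42 in fresh P7 cells, with no overlap. After withdrawal 1 was higher (Fbln1, 1.61) and 1 lower (Col11a1, -2.26), where 2.24% of all genes were called higher and 2.26% lower. The list's median change was -0.38, against 0.75 for the members.

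Enzymes that process and cross-link collagen were called in the same comparisons. Of 14 measured genes 7 were higher in serum P7 cultures than in fresh P7 cells, with Loxl2 at 4.94, Lox at 4.29, the propeptide-processing enhancer Pcolce at 3.72 and P4ha2 at 3.36. The share called higher over all genes was 9.12%. In MD cultures against fresh P1 cells 7 were higher and none lower, with Lox at 5.66 and Loxl2 at 4.69, in the comparison where Lum and Dcn fell. Of all genes, 10.1% were called higher there and 9.43% lower. After withdrawal none rose and 2 fell, Loxl2 (-1.67) and Plod2 (-1.20), where 2.26% of all genes were called lower.

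Enzymes that build the sugar chains were called in both directions. Of 20 chondroitin and dermatan sulphate genes 2 were higher and 2 lower in serum P7 cultures than in fresh P7 cells: Chst14 (1.32), the dermatan sulphotransferase, and Chpf2 (1.12) rose, and Csgalnact1 (-2.48), which starts the chondroitin chain, and Papss2 (-1.58), which makes the sulphate donor, fell, counts near the share over all genes (9.12% higher and 9.04% lower). None of the 20 was called by limma between withdrawn and serum P7 cultures, where 4 were lower at an unadjusted p under 0.05. Of 14 keratan sulphate and tyrosine sulphation genes 4 were higher and 1 lower in serum P7 cultures than in fresh P7 cells, with St3gal1 at 2.02 and Chst1, the keratan sulphotransferase, at -2.44.

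Growth factors and receptors that these proteoglycans bind were called in both directions. Of 21 measured genes 6 were higher and 4 lower in serum P7 cultures than in fresh P7 cells, where 9.12% of all genes were called higher and 9.04% lower. Bmp4 was at 2.73, Tlr4, a receptor of free biglycan, at 2.28, Tgfb3 at 2.27 and Egfr, a receptor that decorin binds, at -2.45. In MD cultures against fresh P1 cells 2 were higher, near the share of 10.1% over all genes, and 5 lower, where that share was 9.43%. Tgfb3 was at 3.25, Tgfb2 at 2.48, Egfr at -2.54 and Acvr2b at -2.23. In withdrawn against serum P7 cultures Bmp4 was higher by 1.81 and Tlr2 by 1.38, with Tgfb3 at -1.71 and Tgfb2 at -1.13. Of all genes, 2.24% were called higher there and 2.26% lower. Among 13 proteases that cut these proteoglycans, Mmp2 (2.17), Adamts4 (1.52) and Htra1 (1.26) were among the 4 that rose in serum P7 cultures against fresh P7 cells and Adamts1 (-1.15) was the 1 that fell. Htra1 (-2.45) and Adamts1 (-1.80) were the 2 that fell after withdrawal.

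Members differed in how closely they tracked one another. Over the 21 arrays, Pearson's r was 0.95 for Lum with Dcn, 0.92 for Fmod with Omd and 0.90 for Dcn with Ogn, and 0.38 for Lum with Bgn. Taken over deviations from the group means, which leave out differences between groups, r was 0.89, 0.93, 0.82 and 0.40 for the same pairs. Fmod with Prelp had r = 0.82 over arrays and 0.03 over deviations, and Prelp with Aspn 0.45 and -0.46. These correlations describe the 21 arrays, which share 7 groups, of which the HBEGF P7 group has the widest spread for 5 members.

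Genes outside the family with the most similar pattern were ranked by r with the mean of the members' standardised levels. Cyp1b1, a retinoid and steroid hydroxylase, came first over the 21 arrays (r = 0.981), followed by the transcription factor gene Tfap2b (0.976), RGD1309362 (0.975), the collagen-cutting cathepsin Ctsk (0.970), Ifitm2 and Pcolce (both 0.965), and Tfpi and Clmp (both 0.963). Cyp1b1 had group means of 7.42 in MD cultures, 8.06 in fresh P1 cells, 10.75 in HBEGF P7 cultures, 12.66 in serum and 12.88 in withdrawn P7 cultures. Over the 21 deviations from group means it was first again (0.938), before Colec12 (0.921), Lamb1 and Sult1a1 (both 0.918), Adgra2 (0.899), Eva1b (0.895), Bmp6 (0.894) and Cyba (0.888). Cyp1b1 gave 11.49, 8.83 and 11.94 on the HBEGF P7 arrays, low on replicate 2 as most members were.

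Single members had different nearest genes. Lum was most like Cdh11 (0.969), Col3a1 (0.965) and Dab2 (0.944), and Dcn like Colec12 (0.960), Col3a1 (0.943) and Vstm4 (0.933). Bgn was most like the transcription factor gene Twist1 (0.959), Col1a2 (0.957) and the tropomyosin gene Tpm2 (0.953). Ogn had Cyp1b1 (0.978), Tfpi (0.973) and Ifitm1 (0.970), Fmod had Bmp6 (0.957), C1s (0.948) and Ifitm3 (0.946), and Omd had Sult1a1 (0.975), Psmb8 (0.974) and Fbxw17 (0.972). The nearest genes of Prelp were Cracdl (0.956), Cln6 (0.955) and Bcat2 (0.953), and those of Aspn Itgb3 (0.871), Tnfaip8l3 (0.853) and Slc38a10 (0.851).

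Several members are neighbours in the genome. In RefSeq's annotation of the rat assembly GRCr8, Dcn and Lum lie side by side on chromosome 7, with Kera next to Lum, and Optc, Prelp and Fmod follow one another on chromosome 13. Ogn, Omd and Aspn stand in a row on chromosome 17, and Bgn lies alone on chromosome X between Haus7 and Atp2b3. Neighbours did not always share a pattern: Dcn and Lum were both lowest in MD cultures, while Ogn was lowest there and Omd was 1.98 higher there than in fresh P1 cells, and Aspn was called only for serum P7 against MD cultures among the 11 comparisons. Prelp and Fmod were both highest after withdrawal, but the HBEGF P1 cultures were above fresh P1 cells by 1.89 for Fmod and by 0.63 for Prelp, which was not called (adjusted p = 0.319). Optc, beside them, had group means between 4.77 and 5.73 and was not called.

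**Figure D4:**
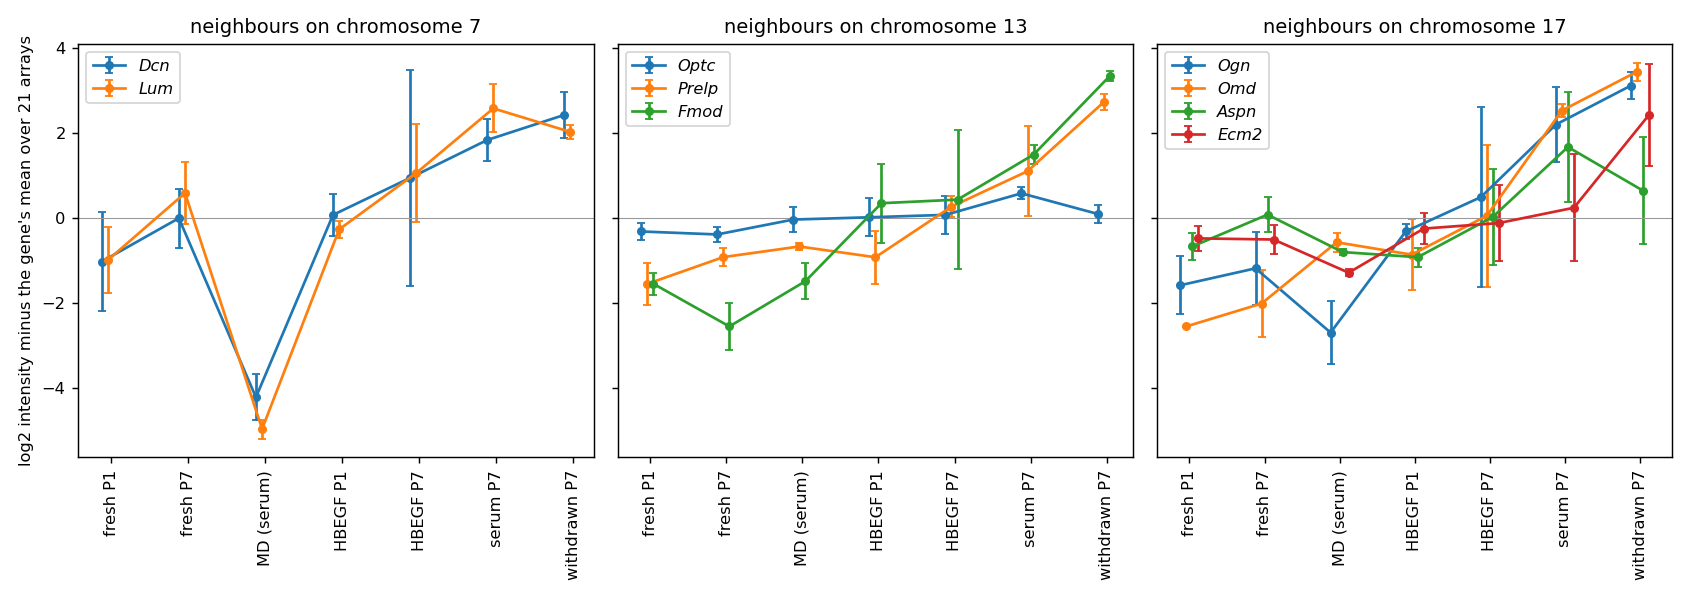
Group means of log2 intensity, each minus the gene's own mean over 21 arrays, are drawn for neighbouring family genes on chromosomes 7, 13 and 17, with bars of 1 SD over 3 arrays. Dcn and Lum dip together in MD cultures, and on chromosome 17 Ogn and Omd part there. Prelp and Fmod peak in withdrawn P7 cultures, while Optc varies little (group means of 4.77 to 5.73 before its own mean is taken off). The chromosome 17 panel also draws Ecm2, whose position was not looked up.

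Because the chromosome 17 neighbours were called together in some comparisons and apart in others, the bases in front of these genes and of Fmod, called in both comparisons of HBEGF cultures with fresh cells, are shown for comparison. RefSeq promoter entries (GRCr8) matched 5 of the 8 members: Lum, Ogn, Fmod, Omd and Aspn. Only bases in front of the outermost annotated start are printed, 5′ to 3′ on the gene's strand, with capitals for matches to 4 promoter motifs, each searched on both strands.
Ogn, chr17:15259168-15259245, minus strand: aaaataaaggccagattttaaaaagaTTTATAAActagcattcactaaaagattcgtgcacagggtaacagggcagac
Omd, chr17:15274871-15275120, minus strand: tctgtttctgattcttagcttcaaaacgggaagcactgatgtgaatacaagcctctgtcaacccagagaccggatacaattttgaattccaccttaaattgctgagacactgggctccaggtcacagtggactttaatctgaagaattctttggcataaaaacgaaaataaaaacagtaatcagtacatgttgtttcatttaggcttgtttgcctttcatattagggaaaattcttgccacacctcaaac
Aspn, chr17:15310568-15310719, minus strand: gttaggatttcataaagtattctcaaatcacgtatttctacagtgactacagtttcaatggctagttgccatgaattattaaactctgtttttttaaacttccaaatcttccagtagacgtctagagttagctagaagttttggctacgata
Fmod, chr13:48045317-48045566, plus strand: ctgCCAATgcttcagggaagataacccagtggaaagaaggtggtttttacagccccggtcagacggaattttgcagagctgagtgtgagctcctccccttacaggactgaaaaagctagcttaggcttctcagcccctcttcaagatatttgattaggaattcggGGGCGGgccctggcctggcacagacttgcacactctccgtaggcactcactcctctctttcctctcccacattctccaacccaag

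Stretches differ in length, and their base content is not compared between genes. Only that of Fmod, whose stretch has 250 bases, is set beside all promoters. The Ogn stretch held 2 overlapping TATAAA matches, 1 on each strand, within the capitals, and was 34.6% G and C. Fmod held 1 CCAAT and 1 GGGCGG match and was 52.8% G and C, where the median over the 250 bases of all RefSeq rat promoters was 51.2%. The Omd (38.8%) and Aspn (33.6%) stretches held none of the 4 motifs. For Lum, whose stretch is not printed, 1 CCAAT match was found in its 250 bases. The motifs were a TATA box, a GC box, a CCAAT box and an AP-1 site. Over 33469 promoters of 250 bases, 12.9% held TATAAA, 30.5% GGGCGG, 34.0% CCAAT and 6.34% TGANTCA. A match here describes letters and was not tested as a site.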

How the data were processed

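Total RNA of 21 samples was hybridised to 1-colour Affymetrix expression arrays for the rat genome, per the labels' protocols. The deposited values are linear intensities from 10.03 to 37801, with array medians from 128 to 146.3, and the authors made them with RMA, per the submitters' processing notes. RMA equalises the arrays, so a shift shared by most genes would not show. Which program and version ran RMA, and with which probe-to-gene file, is not given in the sources used here.

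From these, log2 was taken with no pseudocount or filter. Groups came from titles and labels. Of 31042 probe sets, 20826 carried 1 gene symbol in GEO's platform annotation, 436 several and 9780 none. A linear model of 7 group means was fitted over all probe sets with limma 3.58.1 (R 4.3.3), with 14 residual and 2.89 prior degrees of freedom and Benjamini-Hochberg adjustment over all probe sets. A call needed an adjusted p under 0.05 and a log2 change of at least 1. It was tested on simulated data. Figures used Python 3.11.15, pandas 2.3.3 and matplotlib 3.10.9.

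Named were the 8 members, up to 4 called genes of a list with the largest change, and the genes most like the members by r. The members and lists were chosen with earlier results of these data known. No pair of arrays was identical (r within groups 0.962 to 0.995), and beyond "biological replicate" nothing says whether replicates came from separate litters.

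Replicate numbers were checked as pairs. Samples of the same number deviated together in 5 comparisons: HBEGF P1 with fresh P1 (r 0.25 to 0.51), HBEGF P7 with HBEGF P1 (0.46 to 0.57), MD with fresh P1 (0.23 to 0.39), MD with HBEGF P1 (0.37 to 0.60) and withdrawn with serum P7 (0.24 to 0.53). In each of the other 6 comparisons at least 1 same-number correlation was below 0.1. The main fit has no block.

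Alternatives were median centring, quantile normalization, a filter on low means, the mean of a gene's probe sets, limma with trend and robust, array weights, the compared groups only, the replicate block, no fold limit, and leaving out each array.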

Additional observations from a re-analysis of the deposited data

How the results depend on the processing

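The main fit made 39 calls of a member in the 11 comparisons, and no alternative turned the sign of one. Quantile normalization lost and gained none, median centring gained 1, the filter on low means (23281 probe sets, all 8 members kept) and the mean of a gene's probe sets gained 2 each, and trend with robust gained 1. Array weights lost 1 and gained 9. Fitting the compared groups only lost 9 and gained 4, in fits with fewer arrays.

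In HBEGF P1 cultures against fresh P1 cells, 1 member was called higher in the main fit, 2 with no fold limit, the filter, the mean of probe sets, trend with robust or array weights, and 3 with the compared groups only. In withdrawn against serum P7 cultures 1 was called higher in the main fit, 2 with the mean of probe sets and 3 with array weights, which also called 1 lower, against 0. With the compared groups only, 1 member was called higher in HBEGF P7 cultures against fresh P7 cells (4 in the main fit), 0 in HBEGF P7 against HBEGF P1 cultures (1), 1 in serum against HBEGF P7 cultures (3) and 3 in withdrawn against HBEGF P7 cultures (5). The cause was not tested.

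With the replicate block, 2 members were called higher in HBEGF P1 cultures against fresh P1 cells and 2 in withdrawn against serum P7 cultures, and the block changed no other call.

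With 1 array left out, counts of members called higher ran from 0 to 2 in HBEGF P1 cultures against fresh P1 cells, 1 to 5 in HBEGF P7 cultures against fresh P7 cells, 1 to 4 in HBEGF P7 against HBEGF P1 cultures, 6 to 7 in serum P7 cultures against fresh P7 cells, 2 to 5 in serum against HBEGF P7 cultures, 4 to 6 in withdrawn against HBEGF P7 cultures and 0 to 1 in withdrawn against serum P7 cultures. Members called lower in MD against HBEGF P1 cultures ran from 2 to 4. With 3 arrays a group the precision of every value is limited, and levels of Lum, Dcn and Aspn in MD cultures lay in the lower part of their arrays (percentiles 7.54 to 35.4).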
